A study of Mus musculus with 6 samples.

Results

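The 10 genes described here, Lyve1, Folr2, Cd163, Mrc1, F13a1, Timd4, Cbr2, Gas6, Maf and Stab1, are known as markers and effectors of the resident macrophages that live in the outer wall of arteries and around small vessels. They were taken by gene symbol from the table of the series, in which all 10 were present among 18476 genes. The statistical fit described below counted 18480 genes before filtering, and this mismatch was not resolved. Their expression was measured by bulk RNA sequencing of mouse femoral arteries 3 days after wire injury, a model in which a guide wire pushed along the vessel strips its lining. All mice were wild-type C57BL/6; the labels state no age. In the saline group, 3 libraries came from arteries given saline around the vessel, and in the vasostatin-2 group 3 came from arteries given vasostatin-2, a fragment of the granule protein chromogranin A, by the same route. Uninjured arteries are not analysed here, so every value belongs to an injured vessel. The labels describe the libraries as biological replicates from a single batch.

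Resident macrophages of the adventitia, the connective tissue coat of an artery, are seeded before and shortly after birth and largely maintain themselves by division. They are known for engulfing dying cells, taking up hyaluronan, haemoglobin complexes and modified proteins, and restraining fibrosis of the vessel wall. Macrophages that arrive from blood monocytes after injury begin with little of this programme. Lyve1, Timd4 and Folr2 together mark a self-renewing resident population in many mouse tissues, while cells rich in Ccr2 or MHC class II are largely replenished from monocytes. None of these genes is exclusive to macrophages. Lyve1 and Stab1 are also made by lymphatic and sinusoidal endothelium, F13a1 by monocytes and megakaryocytes, Maf by T cells, and Gas6 by smooth muscle, fibroblasts and endothelium. In bulk tissue, fewer cells of a type and less RNA per cell cannot be told apart.

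The libraries held between 19333730 and 20105995 estimated counts, so depth was nearly equal. VSMCs are the labelled cell type, whereas the protocol describes RNA of injured arteries as a whole. Smooth muscle genes such as Acta2 were present in every library, with 11 of 11 listed genes detected and a summed level of 1035 to 2480 CPM, that is, counts scaled to library size. The summed level of 11 fibroblast genes was 31710 to 58760 CPM, of which Col3a1 alone held 12000 to 23720 CPM. CPM is not corrected for gene length, so sums of different lists do not rank the cell types. Macrophage genes were abundant too, with 20 of 20 listed genes detected and a summed level of 7255 to 11420 CPM. Some libraries stood apart in tissue makeup. Schwann cell genes summed to 933 CPM in saline replicate 3 and to 177 to 279 CPM elsewhere. Skeletal muscle genes summed to 1067 CPM in vasostatin-2 replicate 3 and to 65.7 to 112 CPM elsewhere. Red cell genes summed to 12410 CPM in saline replicate 2 and to 327 to 2528 CPM elsewhere.

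On the TPM scale, which corrects for gene length and depth, the 10 genes spanned levels from abundant to scarcely detected. Cbr2, a carbonyl reductase, was highest at a mean of 495 TPM over the 6 libraries (347 to 719 TPM). It was followed by Gas6, the ligand of the TAM receptors, at 384 TPM and by Stab1, a scavenger receptor, at 299 TPM. Cbr2 exceeded Gas6, and Gas6 exceeded Stab1, in 6 of 6 libraries, although their ranges over libraries overlapped. Folr2 (153 to 299 TPM), Mrc1 (200.4 to 265 TPM) and F13a1 (167 to 241 TPM) formed the middle of the order and were not separable by their spread, since Folr2 exceeded Mrc1 in only 3 of 6 libraries and Mrc1 exceeded F13a1 in 4. Maf followed at 132 TPM and Lyve1 at 104 TPM, with overlapping ranges. Cd163 stood clear of both at 32.3 TPM (24.1 to 49.98 TPM). Timd4 was last at 1.96 TPM, with only 9 to 44 estimated counts per library. Of the 10 genes, Cbr2 lay at the 98.1 percentile of mean TPM among the genes tested and Timd4 at the 13.3 percentile.

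**Figure D1:**
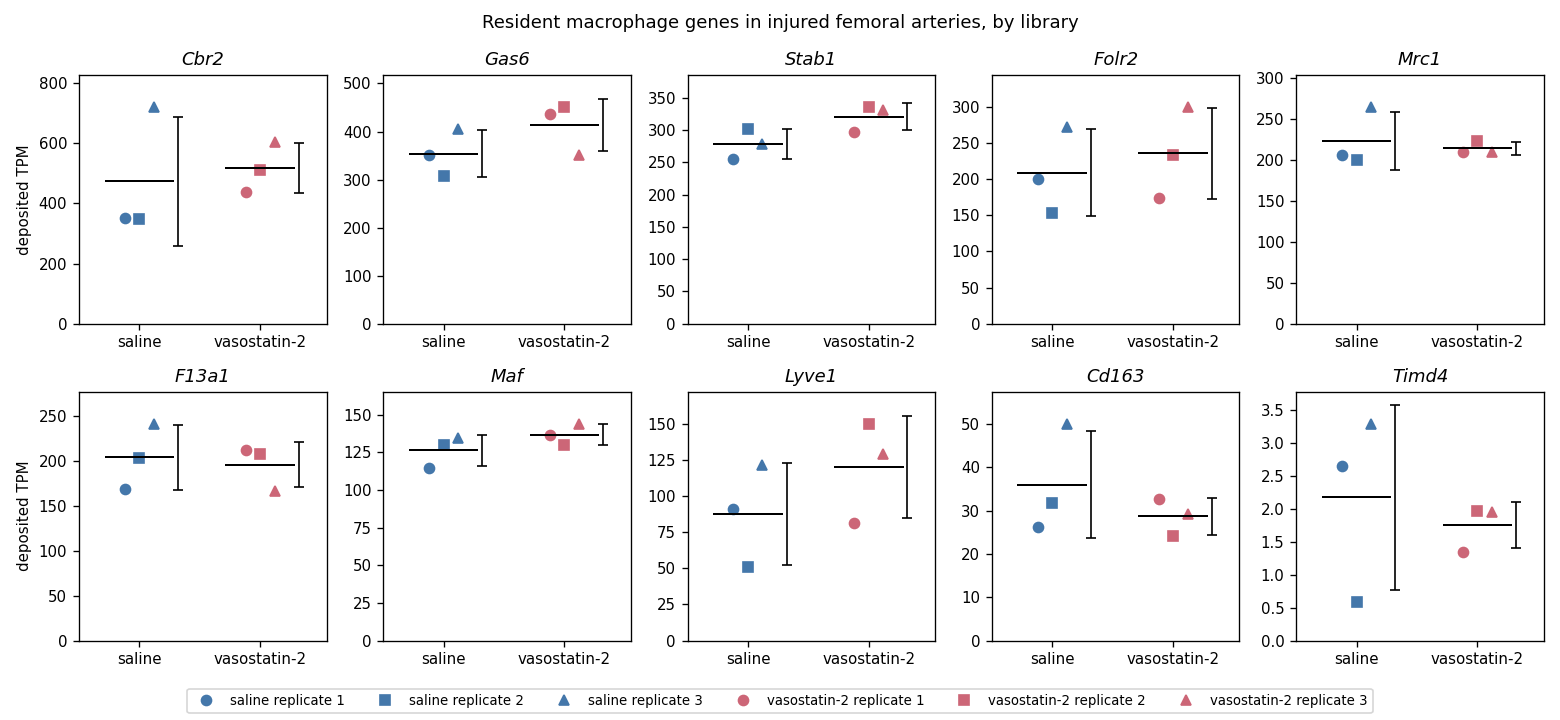
Deposited TPM of each resident macrophage gene in every library, ordered by mean level. Symbols mark the replicates, horizontal lines the group means and error bars the SD of 3 libraries. Levels run from a mean of 495 TPM for Cbr2 to 1.96 TPM for Timd4, and the groups overlap in all 10 panels.

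For the resident macrophage genes, no difference between vasostatin-2 and saline was resolved against the spread between libraries. With 3 libraries per group, the absence of calls among the 10 does not show that they were unchanged. Of the 10 genes, 6 had a higher fitted level with vasostatin-2 and 4 a lower one, against 49.8% of all tested genes with a higher level. The quasi-likelihood test of edgeR, adjusted by Benjamini-Hochberg over all 14557 genes tested, called 0 of the 10, and called 0 genes in all (0%). All 10 passed the low-count filter. In edgeR, 0 of the 10 had an unadjusted p below 0.05, a threshold passed by 7.14% of all genes. DESeq2 also called 0 of the 10 and 0.776% of all genes, and at unadjusted p its share of all genes was 6.64%. The libraries of the groups overlapped for every one of the 10, where 12.8% of all genes had groups that did not overlap, 6.07% higher and 6.72% lower with vasostatin-2. The median log2 fold change of the 10 was 0.14, beside −0.00068 over all genes tested. Leaving out saline replicate 1 gave a median of 0.0045, leaving out saline replicate 2 gave 0.025, and leaving out vasostatin-2 replicate 3 gave 0.037. Without saline replicate 3, 9 of the 10 had a higher fitted level with vasostatin-2. The authors' deposited table gives a DESeq2 q-value of 1.00 for each of the 10.

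**Figure D2:**
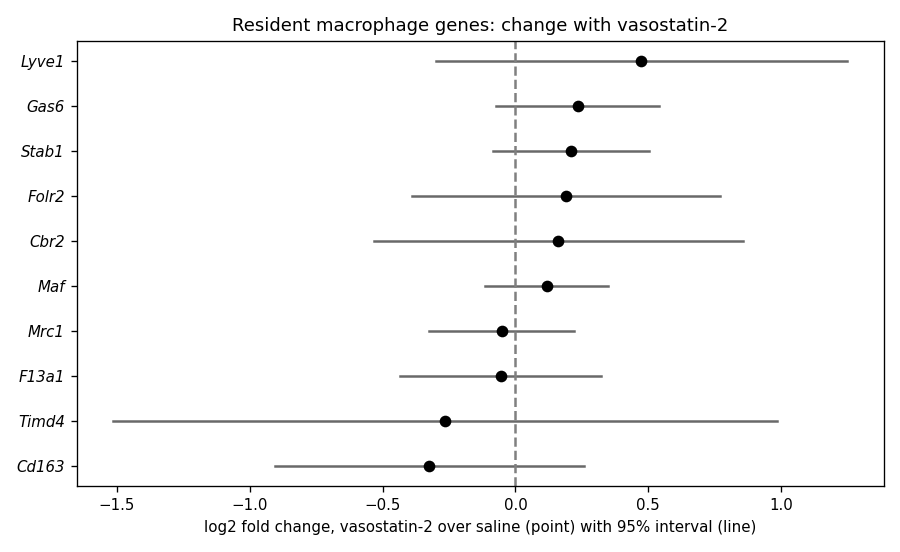
Log2 fold change of each resident macrophage gene, vasostatin-2 over saline (points), with 95% intervals from edgeR's quasi-likelihood fit (lines). All 10 intervals include 0; the point estimates run from −0.32 for Cd163 to 0.47 for Lyve1, and the interval is widest for Timd4.

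Lyve1, the hyaluronan receptor that names the resident adventitial population, had the largest fitted difference of the 10. Replicates 1, 2 and 3 of the saline group held 112, 68.0 and 149.6 CPM of Lyve1, and those of the vasostatin-2 group 103.5, 190.5 and 164 CPM. Values below follow the same order of replicates. Both vasostatin-2 replicates 2 and 3 lay above every saline library, while vasostatin-2 replicate 1 lay among them. Its log2 fold change was 0.47 (95% interval −0.30 to 1.25; edgeR adjusted p = 0.799). Leaving out saline replicate 2 gave 0.22, vasostatin-2 replicate 2 gave 0.29 and saline replicate 3 gave 0.77. Its spread was wide, with the highest library at 2.80 times the lowest.

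Genes of lymphatic endothelium, which also makes Lyve1, leaned the same way. Of 11 lymphatic genes, all tested, 10 had a higher fitted level with vasostatin-2, and their summed level was 526 to 702 CPM with saline and 716 to 1012 CPM with vasostatin-2. Their median log2 fold change was 0.52, with values between 0.41 and 0.68 when any 1 library was left out. Prox1, the transcription factor that defines lymphatic identity, was at 35.5, 19.3 and 24.97 CPM with saline and 34.8, 41.2 and 38.6 CPM with vasostatin-2. Like Lyve1, Prox1 was lowest in saline replicate 2 and highest in vasostatin-2 replicate 2. Ccl21a, the chemokine that draws dendritic cells into lymphatics, had a log2 fold change of 0.70 and Flt4, the receptor for VEGF-C, one of 0.38. edgeR called 0 of the 11, of which 6 had an unadjusted p below 0.05, and DESeq2 called 2, Mmrn1 and Tbx1, named here after their values were seen. Mmrn1, a multimerin of lymphatic vessels, had a log2 fold change of 0.79 and no overlap between groups. The part of lymphatic cells in the Lyve1 difference was not tested.

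**Figure D3:**
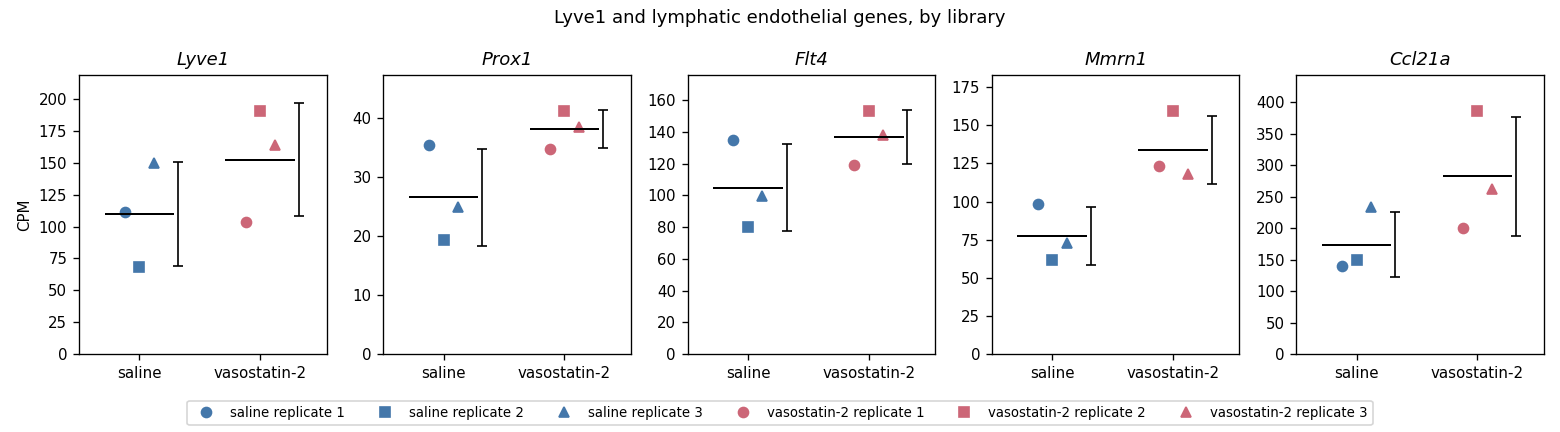
CPM of Lyve1 and of 4 lymphatic endothelial genes in every library, with group means (lines) and SD of 3 libraries (error bars). Lyve1, Prox1 and Flt4 are lowest in saline replicate 2 and highest in vasostatin-2 replicate 2, and Mmrn1 shows no overlap between the groups.

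Stab1, stabilin-1, is a large scavenger receptor that clears modified lipoproteins and matrix fragments. Its values were 970.0, 1245 and 1066 CPM with saline and 1168, 1320 and 1304 CPM with vasostatin-2. It was thus one of the steadier genes, and only saline replicate 2 lay within the vasostatin-2 range. Stab1 had a log2 fold change of 0.21 (95% interval −0.09 to 0.50; edgeR adjusted p = 0.763), between 0.13 and 0.31 when any 1 library was left out. Stab2, its relative on sinusoidal endothelium, was at 0.598 to 1.84 CPM in all libraries. The gene Nt5dc2 overlaps Stab1 on the other strand and had 1999 to 4065 estimated counts, against 19199 to 26373 for Stab1. As no source used here gives the strandedness of the counting, reads of the overlap cannot be assigned.

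Other genes of hyaluronan biology, the ligand system of Lyve1 and Stab2, showed no shared direction. Of 12 listed genes, 6 had a higher and 6 a lower fitted level, with a median log2 fold change of 0.012 and 0 called by edgeR or DESeq2. Leaving out any single library except saline replicate 1 turned that median below 0, to −0.14 at the lowest, without saline replicate 2. Hyal2, a surface hyaluronidase, was at 47.9 to 51.6 CPM with saline and 50.04 to 60.9 CPM with vasostatin-2. Tnfaip6, which links hyaluronan to inter-alpha-inhibitor heavy chains, ranged from 6.51 to 40.8 CPM within the saline group alone.

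Folr2, the folate receptor that marks the same resident population, was at 99.0, 82.3 and 135 CPM with saline and 89.2, 119 and 153 CPM with vasostatin-2. The order of libraries was interleaved, with saline replicate 3 second only to vasostatin-2 replicate 3. Its log2 fold change was 0.19 (95% interval −0.39 to 0.77). Leaving out vasostatin-2 replicate 3 gave −0.019, saline replicate 2 gave 0.041, vasostatin-2 replicate 1 gave 0.37 and saline replicate 3 gave 0.41. Of 11 folate handling genes, 10 were tested. They had a median log2 fold change of −0.07, with 2 higher, 8 lower and 0 called, and a median between −0.12 and −0.031 when any 1 library was left out. Ggh, the lysosomal enzyme that trims folate polyglutamates, was at 36.9 to 46.3 CPM with saline and 43.9 to 48.7 CPM with vasostatin-2. Shmt2, the mitochondrial serine hydroxymethyltransferase, was at 53.6 to 68.5 and 49.3 to 58.9 CPM. Folr1, the epithelial relative of Folr2, had at most 0.101 CPM in any library, below the level of 3 counts (0.149 to 0.155 CPM).

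Cbr2, which reduces carbonyl compounds and is a common marker of mouse resident macrophages, was at 152, 164 and 314 CPM with saline and 199, 229 and 276 CPM with vasostatin-2. Saline replicate 3 was the highest library and the other saline libraries were the lowest, so the saline group enclosed the vasostatin-2 group. Its log2 fold change was 0.16 (95% interval −0.53 to 0.86). It ranged from −0.025 when saline replicate 1 was left out to 0.58 when saline replicate 3 was left out, with 0.010 after leaving out saline replicate 2, 0.027 after vasostatin-2 replicate 3 and 0.27 after vasostatin-2 replicate 1. Saline replicate 3 was also the library with the highest Schwann cell genes, and nerves hold resident macrophages of their own. The part of nerve tissue in this value was not tested.

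Mrc1, the mannose receptor CD206, was one of the steadiest of the 10. It was at 520.1, 549.7 and 671 CPM with saline and 549.8, 584 and 547 CPM with vasostatin-2. All libraries except saline replicate 3 lay within 520.1 and 584 CPM. Mrc1 had a log2 fold change of −0.05, with a 95% interval from −0.32 to 0.22. The sign turned without saline replicate 3, at 0.069.

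F13a1 encodes the A subunit of factor XIII, the transglutaminase that crosslinks fibrin and matrix. It was at 309, 405 and 444.5 CPM with saline and 403, 395 and 317 CPM with vasostatin-2. Each group held 1 low library, saline replicate 1 and vasostatin-2 replicate 3. The fitted log2 fold change was −0.06 (95% interval −0.43 to 0.32). It turned to 0.060 when saline replicate 3 was left out and to 0.046 when vasostatin-2 replicate 3 was, and was −0.19 when saline replicate 1 was. Of 11 other genes of factor XIII and fibrin turnover, only 5 passed the low-count filter and 0 were called. Anxa2, a plasminogen-binding surface protein, was at 881 to 1067 CPM with saline and 902 to 984 CPM with vasostatin-2. Platelet genes, a further source of F13a1, summed to 279 to 388 CPM with saline and to 212 to 253 CPM with vasostatin-2. Most of that sum was the chemokine Pf4, which is also among the other resident macrophage genes described below. Of the 11 platelet genes, 5 had a higher and 6 a lower fitted level, with a median log2 fold change of −0.045. When single libraries were left out, that median ran from −0.14, without saline replicate 1, to 0.43, without saline replicate 2. DESeq2 called 2 of the 11 platelet genes, Pf4 and Ppbp, both lower, and edgeR called 0. The other 9 platelet genes stayed at or below 16.1 CPM.

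Cd163, the receptor that clears haptoglobin-haemoglobin complexes, had the lowest fold change of the 10. It was at 54.9, 72.3 and 106 CPM with saline and at 71.7, 51.8 and 63.0 CPM with vasostatin-2. Saline replicate 3 stood clear above all others, while saline replicate 1 lay among the vasostatin-2 libraries. The fitted log2 fold change was −0.32 (95% interval −0.91 to 0.26; edgeR adjusted p = 0.819). Leaving out saline replicate 3 gave −0.031, vasostatin-2 replicate 2 gave −0.21 and saline replicate 1 gave −0.52.

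Red cell transcripts were highest in saline replicate 2 and Cd163 in saline replicate 3. The part of red cells in the Cd163 values was not tested. Of 14 genes of haemoglobin scavenging and haem breakdown, 10 had a lower and 4 a higher fitted level, with a median log2 fold change of −0.099. The direction of the list median turned on 1 library, saline replicate 2, which held the most red cell transcripts. Without it, 9 were higher and 5 lower, with a median of 0.12. Leaving out saline replicate 1 gave −0.26, saline replicate 3 gave −0.20 and vasostatin-2 replicate 2 gave −0.16. Hmox1, the haem oxygenase, was at 796, 1091 and 1010 CPM with saline and 786, 409 and 404 CPM with vasostatin-2, so vasostatin-2 replicate 1 lay just under the lowest saline library. The fitted log2 fold change of Hmox1 was −0.86 (edgeR adjusted p = 0.65). It lay between −1.25 and −0.69 when any 1 library was left out, with −0.76 without saline replicate 2. Slc40a1, the iron exporter ferroportin, was at 34.9 to 41.1 CPM with saline and 15.5 to 28.1 CPM with vasostatin-2. Its log2 fold change was −0.85, between −1.13 and −0.68 when any 1 library was left out, with −0.79 without saline replicate 2. Slc40a1 was the only gene of this list called by DESeq2, and is named here for that call. edgeR did not call it (adjusted p = 0.548). The groups did not overlap for 2 of the 14 genes, both lower, against 6.72% of all genes in this direction. The abundant ferritin chains Ftl1 and Fth1 had log2 fold changes of −0.06 and −0.16. As the red cell genes also differed between libraries, their part in these values was not tested.

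Timd4, a receptor for phosphatidylserine on dying cells, is a marker of long-lived resident macrophages, and it was scarce. Estimated counts were 34, 9 and 44 with saline and 18, 28 and 26 with vasostatin-2. In the lowest library, the 95% exact Poisson interval around 9 counts runs from 4.12 to 17.1, and in the highest that around 44 runs from 31.97 to 59.1. These intervals cover counting error only. The saline group held both the lowest and the highest library, and the vasostatin-2 libraries lay between them. Timd4 had a log2 fold change of −0.26, with a 95% interval from −1.51 to 0.99 that spans both a loss and a gain of large size. When single libraries were left out, it ran from −0.68, without saline replicate 2, to 0.16, without saline replicate 3.

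Gas6 bridges phosphatidylserine to the TAM receptors Axl, Mertk and Tyro3, which drive the uptake of dying cells. It was at 427, 406 and 496 CPM with saline and at 552, 568 and 443 CPM with vasostatin-2. As with Lyve1, 2 of the 3 vasostatin-2 libraries lay above every saline library, here replicates 1 and 2. Gas6 had a log2 fold change of 0.23 (95% interval −0.07 to 0.54; edgeR adjusted p = 0.744), between 0.17 and 0.34 when any 1 library was left out and 0.43 without both replicates numbered 3. The overlapping gene Tmem255b on the other strand had 136 to 207 estimated counts, against at least 7861 for Gas6. Smooth muscle, a further source of Gas6, had 11 of 11 listed genes at a higher fitted level with vasostatin-2, with a median log2 fold change of 0.37 and 0 called by edgeR or DESeq2. Without vasostatin-2 replicate 3, 8 of the 11 were higher and the median was 0.22; leaving out vasostatin-2 replicate 2 gave 0.23, and vasostatin-2 replicate 1 gave 0.73. Fibroblast genes had no stable direction, with 7 of 11 higher and a median of 0.072 over all libraries, 4 of 11 and −0.063 without saline replicate 2, and 10 of 11 and 0.18 without saline replicate 1. Omission of saline replicate 3 gave 0.27, and vasostatin-2 replicate 3 gave 0.00061. Blood endothelial genes summed to 2184 to 2581 CPM with saline and 2198 to 2544 CPM with vasostatin-2. The part of these cells in the Gas6 value was not tested.

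Of the receptors, Axl had the clearest difference. It was at 345, 253 and 361 CPM with saline and 386, 492 and 493 CPM with vasostatin-2, and the groups did not overlap, as for 6.07% of all genes in this direction. Its log2 fold change was 0.51 (edgeR adjusted p = 0.623), between 0.37 and 0.62 when any 1 library was left out. Mertk, the main TAM receptor of macrophages, was at 61.8, 109 and 72.1 CPM with saline and 61.1, 71.9 and 68.8 CPM with vasostatin-2. Tyro3 was scarce, at 7.59 to 15.2 CPM in all libraries, and the other ligand Pros1 had a log2 fold change of 0.06. Of 20 listed genes of apoptotic cell uptake, 18 were tested, with 9 higher, 9 lower and 0 called by edgeR or DESeq2, and a median log2 fold change of 0.023. Omission of saline replicate 3 or vasostatin-2 replicate 3 turned that median to −0.018, and leaving out saline replicate 1 gave 0.072. Mfge8, a further bridging protein, had a log2 fold change of 0.25 and Lrp1, a large endocytic receptor, one of 0.14.

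Maf, the transcription factor c-Maf that sustains the resident programme, varied least between libraries along with Mrc1. It was at 198, 244 and 233 CPM with saline and 243, 232 and 256 CPM with vasostatin-2. Saline replicate 1 alone lay clearly below the others. The fitted log2 fold change was 0.12 (95% interval −0.11 to 0.35), with 0.034 when saline replicate 1 was left out and 0.18 when saline replicate 2 was. T cell genes, whose source cells also express Maf, were at low levels, summing to 39.7 to 104 CPM over 10 genes. Of 16 genes of the CSF1 and MAF axis, which sets macrophage survival and identity, 15 were tested, 8 of them higher and 7 lower, with a median log2 fold change of 0.033. Without saline replicate 3 the split was 5 higher and 10 lower with a median of −0.016, and without saline replicate 2 it was 12 and 3 with a median of 0.11. The median lay between 0.0010 and 0.026 when any other library was left out. Csf1r, the receptor for CSF1, had a log2 fold change of 0.11. For it, leaving out saline replicate 3 gave −0.015, saline replicate 2 gave 0.24, vasostatin-2 replicate 3 gave 0.18 and vasostatin-2 replicate 2 gave 0.056. The ligands Csf1 and Il34 had log2 fold changes of 0.16 and 0.26. edgeR called 0 of the list, and DESeq2 called 1, named here after its values were seen, Csf2rb, the shared beta chain of the GM-CSF receptor, at 188 to 229 CPM with saline and 146 to 165 CPM with vasostatin-2.

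Maf and PU.1 are known regulators of macrophage genes, so the promoter windows of the members were read for their core letters. RefSeq windows (GRCm38.p6, 250 bases before to 50 after a start site) were available for 8 of the 10 genes, 10 windows in all. The Maf core TGCTGA and the PU.1 core GAGGAA were searched on both strands. TGCTGA was found in 5 of the 10 windows and in 19.5% of all 32851 windows of that length, and GAGGAA in 5 of 10 and 28.3%. The 6 windows printed here were chosen, with the matches known, to show each kind of motif content: GAGGAA alone, TGCTGA alone, both and neither. Capitals mark the motifs, read on the strand of the gene, so that TCAGCA and TTCCTC are the same motifs on the opposite strand.
Mrc1 (chr2:14229164-14229463, plus strand): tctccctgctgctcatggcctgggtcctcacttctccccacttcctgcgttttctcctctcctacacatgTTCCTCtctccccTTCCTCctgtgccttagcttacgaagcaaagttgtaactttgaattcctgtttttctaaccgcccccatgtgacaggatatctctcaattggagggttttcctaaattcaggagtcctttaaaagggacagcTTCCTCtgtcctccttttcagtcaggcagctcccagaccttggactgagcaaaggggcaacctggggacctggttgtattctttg
F13a1 (chr13:37050195-37050494, minus strand): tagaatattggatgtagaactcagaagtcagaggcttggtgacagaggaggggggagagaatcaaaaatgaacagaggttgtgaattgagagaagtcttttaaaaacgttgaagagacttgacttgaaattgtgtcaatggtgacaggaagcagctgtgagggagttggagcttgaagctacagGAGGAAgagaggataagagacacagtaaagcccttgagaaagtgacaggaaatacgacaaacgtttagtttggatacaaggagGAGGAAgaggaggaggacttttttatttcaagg
Folr2 (chr7:101845282-101845581, minus strand): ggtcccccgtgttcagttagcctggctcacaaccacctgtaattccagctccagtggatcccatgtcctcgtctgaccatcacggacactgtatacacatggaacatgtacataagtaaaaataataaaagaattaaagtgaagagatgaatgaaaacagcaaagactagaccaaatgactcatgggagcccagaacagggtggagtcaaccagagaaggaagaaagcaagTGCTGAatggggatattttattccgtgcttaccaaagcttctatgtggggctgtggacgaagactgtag
Cbr2 (chr11:120731972-120732271, minus strand): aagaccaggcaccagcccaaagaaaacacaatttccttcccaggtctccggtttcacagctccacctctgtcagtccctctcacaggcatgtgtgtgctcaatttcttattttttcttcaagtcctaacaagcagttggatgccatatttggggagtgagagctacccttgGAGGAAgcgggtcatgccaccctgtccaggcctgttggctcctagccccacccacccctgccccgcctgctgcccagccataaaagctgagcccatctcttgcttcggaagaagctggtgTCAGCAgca
Stab1 (chr14:31168592-31168891, minus strand): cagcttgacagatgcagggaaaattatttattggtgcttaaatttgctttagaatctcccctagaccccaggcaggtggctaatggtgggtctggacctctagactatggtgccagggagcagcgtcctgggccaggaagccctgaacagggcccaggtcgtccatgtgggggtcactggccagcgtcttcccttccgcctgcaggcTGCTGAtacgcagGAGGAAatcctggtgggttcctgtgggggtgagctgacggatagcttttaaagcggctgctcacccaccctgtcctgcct
Gas6 (chr8:13494486-13494785, minus strand): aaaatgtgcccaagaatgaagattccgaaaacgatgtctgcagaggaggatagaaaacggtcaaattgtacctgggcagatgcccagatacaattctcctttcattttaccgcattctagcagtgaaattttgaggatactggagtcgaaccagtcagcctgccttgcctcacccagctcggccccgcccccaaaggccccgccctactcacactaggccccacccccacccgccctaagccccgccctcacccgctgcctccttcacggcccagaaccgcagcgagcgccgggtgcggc
The Mrc1 window holds 3 GAGGAA cores and no TGCTGA, and the F13a1 window 2 GAGGAA cores and no TGCTGA. The shown Folr2 window holds 1 TGCTGA starting at base −19 from the start site and no GAGGAA. Only the Cbr2 and Stab1 windows hold both motifs, as 5.36% of all windows do, and in Stab1 they start at bases −43 and −30. The Gas6 window and that of Cd163 hold neither. A match describes letters only and is not a site of binding.

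The remaining genes placed these values within the macrophage compartment. Of 28 other genes reported for resident macrophages, all tested, 15 had a higher and 13 a lower fitted level, with a median log2 fold change of 0.04. Leaving out vasostatin-2 replicate 1 turned it to −0.0033, saline replicate 3 gave 0.082 and vasostatin-2 replicate 3 gave 0.13, while any of the others gave 0.015 to 0.022. Apoe, a lipid carrier, was at 4161, 6271 and 3044 CPM with saline and 6640, 5857 and 5581 CPM with vasostatin-2, with overlap at saline replicate 2. Selenop, a selenium carrier, was at 1776 to 2575 CPM with saline and 2022 to 2524 CPM with vasostatin-2. edgeR called 0 of the 28, and DESeq2 called Pf4 and Ccl24, a chemokine for eosinophils, both lower with vasostatin-2 and named here after their values were seen. Ccl24 was at 6.35 to 12.7 CPM with saline and 2.75 to 4.85 CPM with vasostatin-2. 

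Pan-macrophage genes leaned higher with vasostatin-2, with 16 of 20 at a higher fitted level and a median log2 fold change of 0.15, but edgeR and DESeq2 each called 0. Of the 20, 5 had an unadjusted p below 0.05, all higher: C1qb and Adgre1, C1qa, C1qc and Fcgr1, the latter named after their values were seen. When any 1 library was left out, all 5 stayed higher, with Adgre1 between 0.40 and 0.64 and Fcgr1 between 0.18 and 0.34. The groups did not overlap for 5 of the 20, all higher, against 6.07% of all genes in this direction. C1qb, a complement subunit made by macrophages, had a log2 fold change of 0.34, Ctss, a lysosomal protease, 0.19 and Cd68, a lysosomal glycoprotein, 0.18. The count of 16 higher genes changed most with saline replicate 3: without it 10 of 20 were higher and the median was 0.016. Leaving out saline replicate 1 gave 0.097, vasostatin-2 replicate 2 gave 0.090 and saline replicate 2 gave 0.32. Genes of monocytes and recruited macrophages leaned the other way, with 13 of 20 lower and a median of −0.31. The median was −0.14 without vasostatin-2 replicate 2. DESeq2 called Arg1, Chil3 and Clec4e in that list, all lower and named after their values were seen, and edgeR called 0 of 20. Ccr2, the chemokine receptor of recruited cells, went against its list, at 249.5, 185 and 217 CPM with saline and 345, 325 and 250.3 CPM with vasostatin-2. Its log2 fold change was 0.50 (edgeR adjusted p = 0.619). In the same list Hp, haptoglobin, and Spp1, osteopontin, had log2 fold changes of −0.07 and −0.0091. MHC class II genes are high in cells that are largely replenished from monocytes. Of these genes, Cd74 and H2-Aa had log2 fold changes of 0.07 and 0.11. The median log2 fold change was 0.0009 over 7 genes, 5 higher and 2 lower. This split depended on single libraries. All 7 were higher without saline replicate 1 (median 0.16) or vasostatin-2 replicate 3 (0.16), and all 7 were lower without vasostatin-2 replicate 1 (−0.10). The median after leaving out saline replicate 2 was −0.077, after saline replicate 3 −0.021 and after vasostatin-2 replicate 2 −0.086.

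Set against the pan-macrophage genes in the same library, the resident genes showed no shift with treatment beyond the spread between libraries. The mean log2 CPM of the 9 members above 10 CPM, less that of the pan-macrophage genes, was −0.27, −0.54 and 0.41 with saline and −0.23, −0.25 and −0.14 with vasostatin-2. The group means were −0.14 ± 0.49 and −0.21 ± 0.06 (SD, n = 3 each), and the saline libraries enclosed the vasostatin-2 libraries. The difference between groups was smaller than the spread among saline libraries, which was set by saline replicate 2 on the low side and saline replicate 3 on the high side. Less the monocyte and recruited macrophage genes, the members were at 0.76, 0.71 and 1.41 with saline and 1.22, 1.51 and 1.21 with vasostatin-2. There, saline replicate 3 lay inside the vasostatin-2 range and the other saline libraries below it.

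**Figure D4:**
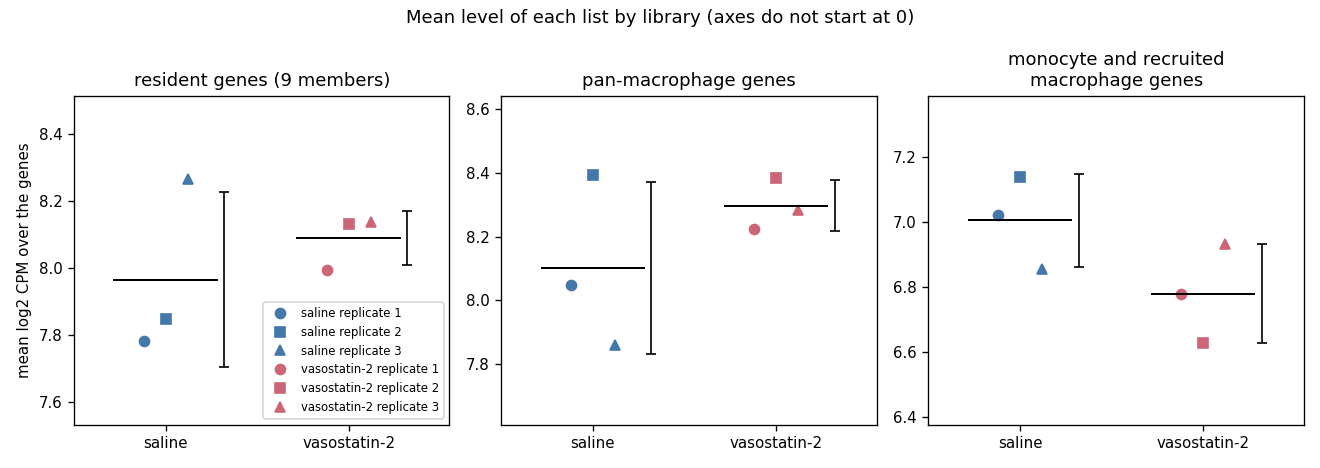
Mean log2 CPM per library of 9 resident macrophage genes, the pan-macrophage genes and the genes of monocytes and recruited macrophages, with group means (lines) and SD of 3 libraries (error bars). Saline replicate 3 is highest for the resident genes and lowest for the pan-macrophage genes among all 6 libraries.

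Which library held the highest or the lowest level differed from member to member. Saline replicate 3 held the highest level of 5 members, Cd163, Mrc1, F13a1, Timd4 and Cbr2. Vasostatin-2 replicate 2 held that of 3, Lyve1, Gas6 and Stab1, and vasostatin-2 replicate 3 that of 2, Folr2 and Maf. Saline replicate 2 held the lowest level of 4, Lyve1, Folr2, Timd4 and Gas6, saline replicate 1 that of Mrc1, F13a1, Cbr2, Maf and Stab1, and vasostatin-2 replicate 2 that of Cd163. Vasostatin-2 replicate 1 held neither the highest nor the lowest level of any member. Saline replicate 2 was at the same time the library with the most red cell transcripts and among those with the highest pan-macrophage genes (8.39 mean log2 CPM), and saline replicate 3 that with the most Schwann cell transcripts. Whether tissue makeup had a part in these differences was not tested.

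The members fell into steady and variable genes. Maf, Mrc1, Stab1, Gas6 and F13a1 differed by 1.29 to 1.44 times between their lowest and highest library, Folr2, Cd163, Cbr2 and Lyve1 by 1.86 to 2.80 times, and the scarce Timd4 by 4.72 times. Among the 9 members above 10 CPM, which leaves out Timd4, the root mean square difference of centred log2 CPM over the 6 libraries was smallest for Maf with Stab1, at 0.098, and for Mrc1 with F13a1, at 0.13. It was 0.20 for Folr2 with Cbr2 and greatest for Lyve1 with Cd163, at 0.64, so the receptors for hyaluronan and for haemoglobin complexes were the least alike of these 36 pairs. Outside the list, the gene closest to the mean profile of the 9 members among 10446 genes was Sgce, epsilon-sarcoglycan, at a difference of 0.025. Add3, Zfp212, Adgrg6 and Nfia followed, at 0.048 to 0.053. With 6 libraries and that many genes, such likeness is a description only.

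**Figure D5:**
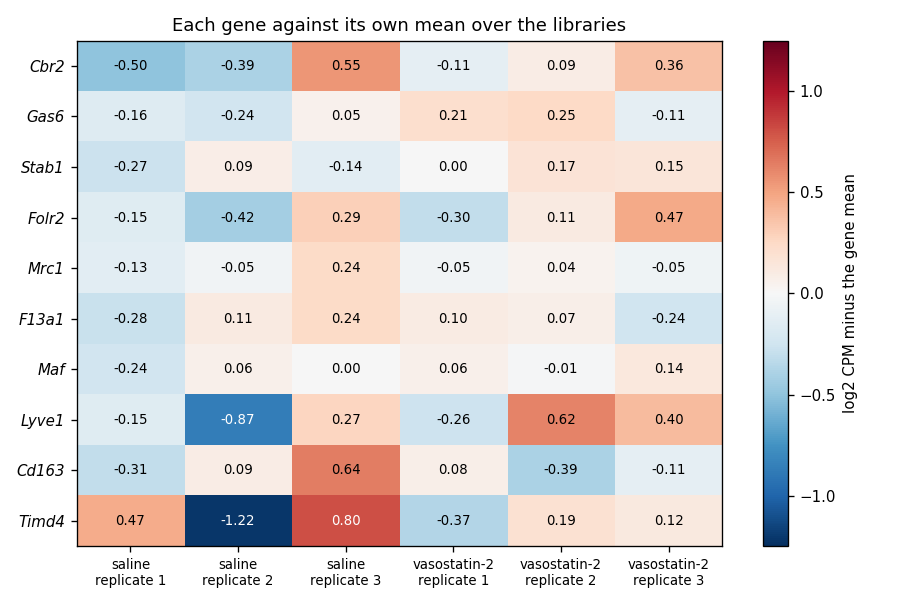
Log2 CPM of each resident macrophage gene in each library minus the gene's mean over the 6 libraries, with genes ordered by mean TPM. Saline replicate 3 is above the mean for every gene except Maf and Stab1, most for Timd4, Cd163 and Cbr2. Saline replicate 1 is below it for every gene except Timd4. Saline replicate 2 is furthest below it for Lyve1 and Timd4, at −0.87 and −1.22.

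By the annotation deposited with the counts (build GRCm38.p6), Lyve1 lies on chromosome 7 from 110850607 to 110862953 and Folr2 on the same chromosome from 101839988 to 101857190. Cd163 lies on chromosome 6 from 124304636 to 124330529, Mrc1 on chromosome 2 from 14229414 to 14332023, and Stab1 on chromosome 14 from 31139017 to 31168641. The deposited table places F13a1 and Maf on the plus strand, while GENCODE M21 for the same build gives the minus strand for both. In GENCODE, antisense genes overlap F13a1 (Gm49144 and Gm30489) and Maf (Gm15655), and none of these has counts here. As the strandedness of the counting is not given, it is not known whether this touched the F13a1 and Maf counts. The other 8 genes have the same strand in both sources. Mrc1 also contains the microRNA gene Mir511, not analysed here.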

How the data were processed

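RNA was extracted from injured femoral arteries with TRIzol, enriched for mRNA with oligo(dT) beads and sequenced on a BGISEQ instrument, per the labels' protocols. HISAT2 2.1.0, DESeq2 1.26.0 and the build GRCm38.p6 are listed, without their roles, per the submitters' processing notes. The counting tool and its strandedness are not given in the sources used here. The authors deposited estimated counts per gene (65.6% of them whole numbers), TPM and FPKM per library, and the results of their DESeq2 comparison (log2 fold change, p-value, q-value); FPKM was not used.

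Estimated counts were rounded, filtered with filterByExpr (14557 genes left), scaled by TMM and tested with edgeR 4.0.16 (R 4.3.3; robust quasi-likelihood, treatment as the only term, Benjamini-Hochberg adjustment at 0.05). CPM uses the scaled library sizes, and log2 CPM adds a prior count of 2. Alternatives were DESeq2 1.42.0 and limma 3.58.1, with other scalings, other filters, log2(TPM + 1), a replicate block and left-out libraries. At this depth 3 counts are 0.149 to 0.155 CPM. No library duplicated another of its own group, since chi-square per degree of freedom within a group was at least 15.5. Pairs across the groups were not checked. Whether the labels' replicates were single or pooled mice is not stated, and p-values measure only the spread between these libraries.

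The members and lists were chosen with earlier results of these data known. Genes named were all members, the 2 most abundant genes of each pathway list that no earlier list held, the most abundant of each cell type list, 12 by name and the 5 closest in profile. Some genes this rule names are not reported here. The alternative with bias-adjusted dispersions was chosen after seeing the data.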

Additional observations from a re-analysis of the deposited data

How the results depend on the processing

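No alternative called any of the 10 genes. Over all genes, DESeq2 called 113 where edgeR called 0, and leaving out single libraries with edgeR gave 0 to 2. The median log2 fold change of the 10 genes stayed above 0 under all 18 alternatives, but ranged from 0.0045 to 0.17 when single libraries were left out; it was 0.041 with limma-voom with quality weights. Lyve1, Gas6, Maf and Stab1 kept a higher and Cd163 a lower fitted level under all 18. When single libraries were left out, log2 fold changes crossed 0 for Cbr2 (−0.025 to 0.58), Folr2 (−0.019 to 0.41), Mrc1 (−0.12 to 0.069), F13a1 (−0.19 to 0.060, and 0.046 without vasostatin-2 replicate 3) and Timd4 (−0.68 to 0.16). Without both replicates numbered 3 the sign turned for Mrc1 (0.084), F13a1 (0.16) and Timd4 (0.086). The cause was not tested. With replicate number as a block the median was 0.15 and 0 genes were called; same-numbered libraries did not deviate together (correlations of −0.12, 0.025 and 0.027) and no saline library correlated best with its own number, so the numbers were not taken as pairs. Counting depth limits Timd4, at 9 to 44 estimated counts per library.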

Other observations

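Genes best known from liver stood out in saline replicate 2, and are named here after their values were seen. Fga, a fibrinogen chain, was at 4.75 CPM there and at most 0.255 CPM in the other libraries. Plg, plasminogen, was at 3.26 CPM there and at most 0.152 CPM elsewhere, and Fgb at 3.57 CPM against at most 0.152 CPM.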
